A study of Mus musculus with 8 samples.

Results

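The visual cycle returns bleached retinal to the cis form that visual pigments need, and in vertebrates it is divided between cell layers. Photoreceptor cells reduce all-trans-retinal to retinol, and a carrier in the matrix around the outer segments moves retinoids between cells. The retinal pigment epithelium (RPE), the pigmented layer behind the retina, esterifies and isomerizes the retinol, oxidizes it to cis-retinal and sends it back. The genes described here are 10 genes of this cycle. They are 7 genes of the RPE (Rpe65, Lrat, Rlbp1, Rdh5, Rgr, Rrh and Stra6) and 3 genes of the photoreceptor side (Rdh8, Rdh12 and Rbp3). They were chosen by name and found among 22911 genes with a named probe through the RefSeq accession of each probe. They had 14 probes on the array, of which 13 probes of 9 genes were tested, and Lrat was not.

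Expression was measured on 8 single-color Agilent mouse arrays of photoreceptor cells from mice of strain C57BL/6 at postnatal day 8. In both groups the cells were taken from dissociated retinas with magnetic beads against CD73, a surface protein of photoreceptor cells. The control was 4 arrays labelled Lpcat1 HZ, from heterozygous mice that keep a working copy of Lpcat1, and the other 4 were labelled Lpcat1 KO. Lpcat1 encodes an acyltransferase that makes phosphatidylcholine with saturated fatty acids, its deletion was carried by the whole animal, and the study kept mice that were not homozygous for the rd8 mutation. Whether a replicate was 1 animal or a pool is not given in the sources used here, so that p-values measure the spread between these arrays, which may be technical. All 8 arrays shared 1 slide, with KO in a different slide row from HZ, so that row and genotype cannot be told apart.

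Values are log2 intensities minus the 75th percentile of the same array, so that 0 is the level of that percentile and a difference of -1 is a halving. Of all probes, 59.5% to 64.6% were well above background on an array. Lpcat1 itself did not separate the labels, with -1.17 to -0.81 on the HZ arrays and -1.16 to -0.85 on the KO arrays (difference -0.037 ± 0.11, SE, n = 4 a group; adjusted p = 0.931, limma). Whether this probe lies in the deleted part is not given in the sources used here. All 25 rod photoreceptor markers looked for were tested, among them Nt5e, which encodes CD73. Of 22 RPE markers outside the visual cycle, 19 were tested as well, so that RNA of RPE genes was measured in cells labelled as photoreceptor cells. In such bulk samples, fewer cells of a type and less RNA per cell cannot be told apart.

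Of the 6 RPE visual cycle genes tested, 6 were lower on average in the KO arrays, by a median of -1.34 on the log2 scale, and the 3 photoreceptor genes differed by a median of -0.18. Over all 14848 tested genes the median difference was 0.029, with 43.2% of genes lower in the KO arrays. At the looser thresholds named in the methods (a fold over 1.5 and an adjusted p under 0.5, at which false calls may be as many as true ones), Rpe65, Rdh5 and Rgr fell, which is 3 of 6 genes against 1.13% of all tested genes called lower. Of the 3 photoreceptor genes, 0 were called. The reported probes of all 6 RPE genes were well above background on all 8 arrays. At the stricter thresholds (a fold over 1.2 and an adjusted p under 0.05), 0 visual cycle genes were called by limma, and 0.00% of all genes. With the normexp background correction Rdh5 passed them (-1.73, adjusted p = 0.0497). An unadjusted p under 0.05 with a lower KO mean was found for 6 of 6 RPE genes, 0 of 3 photoreceptor genes and 3.50% of all genes. The KO arrays lay wholly below the HZ arrays for 3 RPE genes, 0 photoreceptor genes and 2.52% of all genes. Each KO array was below the HZ array of the same replicate number, 4 of 4 pairs, for 6 RPE genes, 0 photoreceptor genes and 9.84% of all genes.

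**Figure D1:**
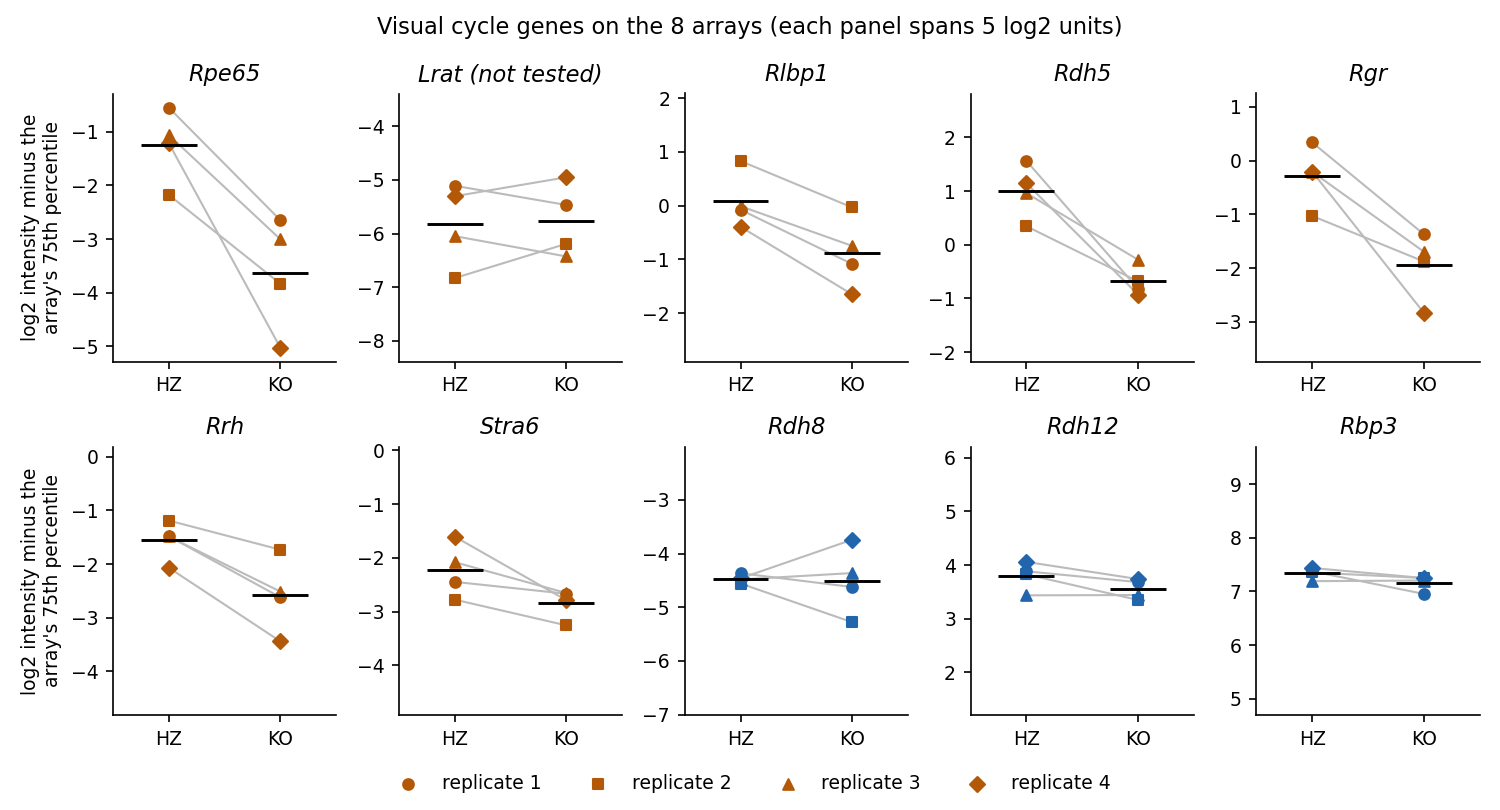
Normalized log2 intensity (vertical axis, 5 log2 units in each panel) of the 10 visual cycle genes on 4 HZ and 4 KO arrays. RPE genes are orange and photoreceptor genes blue, each symbol is an array, grey lines join arrays of the same replicate number and black bars are group means. In Rpe65, Rdh5 and Rgr all 4 KO arrays lie below all 4 HZ arrays, and Lrat was well above background on only 1 array of each group.

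Rpe65 encodes the isomerohydrolase that turns retinyl ester into cis-retinol. Its brighter probe read -0.55, -2.18, -1.06 and -1.21 on HZ arrays 1 to 4 (intensities 664, 227, 440 and 380). The KO arrays read -2.65, -3.83, -3.00 and -5.03 (intensities 143, 69.9, 114 and 28.5). The groups did not overlap, and HZ 2 was the lowest HZ array and KO 4 the lowest KO array. The difference was -2.38 ± 0.54 (SE, n = 4 a group; 95% interval -3.63 to -1.13; adjusted p = 0.368, limma), a fall to 19.2% of the HZ level. It was the widest among the visual cycle genes. With the normexp background correction it was -1.46, and those of Rdh5 (-1.73) and Rgr (-1.49) were wider. That correction was run with an added offset of 50, which narrows differences more at low intensities, such as those of Rpe65 on the KO arrays. The call was lost when HZ 1, HZ 3, KO 2, KO 3 or KO 4 was left out (adjusted p = 0.619 to 0.793) and with no filter on dim probes (adjusted p = 0.716), with differences of -2.70 to -1.91 over the 8 arrays left out in turn. A dimmer probe of Rpe65 was well above background on 4 HZ arrays and 0 KO arrays, and was at least 3.07-fold lower in the KO group. Its p-value is not given, because it rests on KO values not well above background and does not belong to this bound. That probe passed the filter on dim probes through its HZ arrays alone.

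Lrat encodes the acyltransferase that makes the retinyl esters used by RPE65. It was well above background on 1 HZ and 1 KO array and was not tested. Its probe read -6.83 to -5.11 on the HZ arrays and -6.43 to -4.95 on the KO arrays.

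Rdh5 encodes the dehydrogenase that oxidizes cis-retinol in the RPE. It read 1.56, 0.35, 0.96 and 1.14 on HZ arrays 1 to 4, and -0.82, -0.68, -0.28 and -0.93 on KO arrays 1 to 4. The KO arrays were close to each other and all below the lowest HZ array, HZ 2. The difference was -1.68 ± 0.26 (SE, n = 4 a group; 95% interval -2.27 to -1.09; adjusted p = 0.279, limma), a fall to 31.2% of the HZ level. The call was lost without HZ 1, HZ 3, KO 3 or KO 4 (adjusted p = 0.529 to 0.673), and the difference then lay within the range of -1.90 to -1.49 found over all 8 arrays left out.

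Rgr encodes an opsin of the RPE and Müller glia that binds all-trans-retinal. Its brightest probe read 0.34, -1.03, -0.21 and -0.21 on the HZ arrays, and -1.37, -1.88, -1.70 and -2.84 on the KO arrays, which again did not overlap. The difference was -1.67 ± 0.37 (SE, n = 4 a group; 95% interval -2.52 to -0.82; adjusted p = 0.362, limma), a fall to 31.4% of the HZ level. The second probe gave -1.69 (adjusted p = 0.420) and the third -1.25 (adjusted p = 0.479), both past the looser thresholds. In the third probe HZ 2 and KO 2 read nearly the same value, -2.296 and -2.299, and the other KO arrays were lower than both. The call of the brightest probe was lost without HZ 1, HZ 3, KO 2, KO 3 or KO 4 (adjusted p = 0.622 to 0.765) and with no filter on dim probes (adjusted p = 0.716).

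Rlbp1 encodes CRALBP, the cis-retinoid carrier of the RPE and of Müller glia. It read -0.075, 0.83, -0.0095 and -0.39 on the HZ arrays, and -1.09, -0.033, -0.75 and -1.65 on the KO arrays. The groups overlapped, because KO 2, the highest KO array, lay above HZ 1 and HZ 4. Within each replicate number the KO array had 49.6%, 54.9%, 59.9% and 41.7% of the HZ intensity for numbers 1 to 4. The difference was -0.97 ± 0.37 (SE, n = 4 a group; 95% interval -1.83 to -0.11) and was not called (adjusted p = 0.581, limma). With the replicate number as a block the standard error was 0.11 and the adjusted p 0.308. It was also called without HZ 2 (-0.72, adjusted p = 0.38).

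Rrh encodes peropsin, an opsin of the RPE microvilli. Its brighter probe read -1.48, -1.19, -1.49 and -2.07 on the HZ arrays, and -2.62, -1.73, -2.51 and -3.44 on the KO arrays. KO 2 lay above HZ 4, so that the groups overlapped. The difference of -1.02 ± 0.35 (SE, n = 4 a group; adjusted p = 0.524, limma) was not called, and with the replicate block its adjusted p was 0.308. It was called without HZ 2 too (adjusted p = 0.342). A dimmer second probe, well above background on 4 HZ and 2 KO arrays, had groups that did not overlap (-1.78, adjusted p = 0.362).

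Stra6 encodes the membrane receptor that takes up retinol from its plasma carrier. It read -2.45, -2.78, -2.08 and -1.60 on the HZ arrays, and -2.67, -3.26, -2.65 and -2.79 on the KO arrays. HZ 2 lay among the KO arrays. The difference of -0.615 ± 0.26 (SE, n = 4 a group; adjusted p = 0.597, limma) was the narrowest among the RPE genes and was not called. With the replicate block its adjusted p was 0.364, and without HZ 2 it was 0.292. With that block all 6 RPE genes and 0 photoreceptor genes passed the looser thresholds, against 2.95% of all genes called lower.

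On the photoreceptor side, Rdh8 encodes the outer segment enzyme that reduces all-trans-retinal. It read -4.37, -4.56, -4.48 and -4.46 on the HZ arrays, and -4.62, -5.28, -4.36 and -3.74 on the KO arrays. The KO arrays lay on both sides of the HZ arrays and were the more spread (SD 0.079 for HZ and 0.64 for KO). Rdh8 was well above background on 4 HZ and 3 KO arrays. Its difference was -0.034 ± 0.28 (SE, n = 4 a group; 95% interval -0.69 to 0.62; adjusted p = 0.978, limma), and its sign turned with quantile normalization, with the normexp correction and without KO 1 or KO 2.

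Rdh12 encodes the retinal reductase of the inner segments. It read 3.88, 3.83, 3.44 and 4.06 on the HZ arrays, and 3.68, 3.35, 3.44 and 3.74 on the KO arrays, and the groups overlapped. The difference was -0.25 ± 0.15 (SE, n = 4 a group; 95% interval -0.60 to 0.11; adjusted p = 0.695, limma).

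Rbp3 encodes IRBP, the retinoid carrier that photoreceptor cells secrete into the matrix around them. It read 7.37, 7.35, 7.19 and 7.44 on the HZ arrays, and 6.95, 7.25, 7.20 and 7.25 on the KO arrays. KO 1 was the lowest array, and the other KO arrays lay within the HZ range. The difference was -0.18 ± 0.10 (SE, n = 4 a group; 95% interval -0.41 to 0.057; adjusted p = 0.682, limma). The intervals of all 3 photoreceptor genes ended above -1, the difference that a halving would give.

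**Figure D2:**
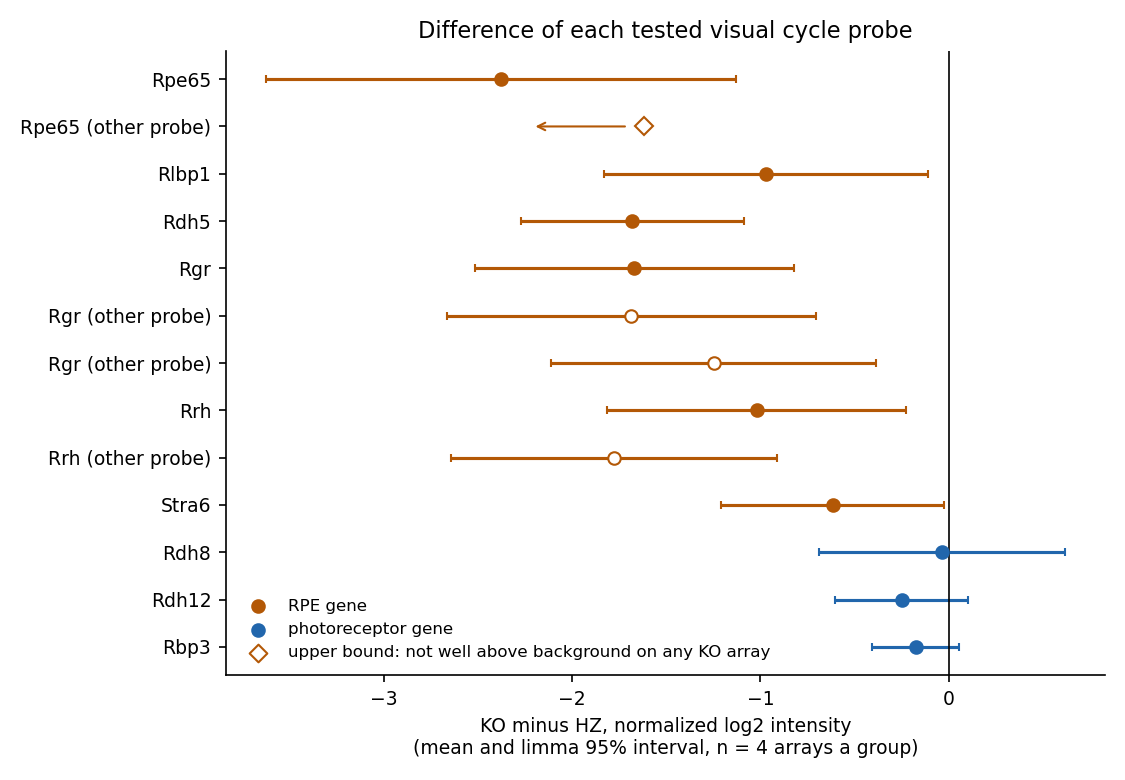
KO minus HZ in normalized log2 intensity (horizontal axis, mean and limma 95% interval, n = 4 arrays a group) for the 13 tested probes. Filled circles are the brightest probe of each gene and open circles its other probes. The diamond with the arrow is the upper bound, -1.62, for the dim Rpe65 probe that was not well above background on any KO array. The other RPE probes lie between -2.38 and -0.615 and the photoreceptor probes between -0.25 and -0.034.

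To set the RPE genes against the photoreceptor genes directly, the log2 ratio of an RPE gene to a photoreceptor gene was taken within each array, where the scaling of the array cancels. Of the 18 ratios of 6 RPE genes to 3 photoreceptor genes, 18 were lower on average in the KO arrays and 9 had a 95% interval of the difference that left out 0. These 9 were the ratios of Rpe65, Rdh5 and Rgr, 3 of 6 RPE genes relative to Rdh8 (0.512% of all genes lower in this way), 3 relative to Rdh12 (0.606%) and 3 relative to Rbp3 (0.997%). The intervals are unadjusted for the number of ratios, and those to 1 photoreceptor gene share its deviations. Relative to Rbp3, the KO minus HZ difference was -2.20 (95% interval -3.86 to -0.55) for Rpe65, -1.51 (-2.21 to -0.80) for Rdh5 and -1.49 (-2.63 to -0.36) for Rgr. Relative to Rdh12 the differences were -2.13 (-3.77 to -0.49) for Rpe65, -1.43 (-2.26 to -0.60) for Rdh5 and -1.42 (-2.58 to -0.27) for Rgr.

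For Rlbp1, Rrh and Stra6 the intervals included 0, and relative to Rbp3 they were -1.85 to 0.26, -1.86 to 0.17 and -1.20 to 0.32. With the replicate number as a block, which compares the KO and HZ arrays of the same number, the intervals of Rlbp1 and Rrh relative to Rbp3 left out 0, at -1.11 to -0.47 and -1.38 to -0.31. So did those relative to Rdh12, at -1.10 to -0.34 and -1.53 to -0.018. Stra6 relative to Rbp3 stayed at -1.23 to 0.35. With this block 5 RPE genes were lower relative to Rdh12 (0.727% of all genes) and 5 relative to Rbp3 (1.08%), but 0 relative to Rdh8 (0.229%), where the interval of Rpe65 was -4.79 to 0.10. Ratios that did not overlap between the groups were found for 3 RPE genes relative to Rdh8 (0.330% of all genes lower), for 3 relative to Rdh12 (0.344%) and for 2 relative to Rbp3 (0.559%). The ratio of Rgr to Rbp3 overlapped narrowly, with KO 1 at -8.325 and HZ 2 at -8.382. Without KO 2 the count was 5 relative to Rdh8 and 4 relative to Rbp3. With fewer arrays any gene separates more easily, and the share of all genes without KO 2 is not given here. The photoreceptor genes did not separate among themselves. The ratio of Rbp3 to Rdh12 differed by 0.073 (-0.32 to 0.46).

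**Figure D3:**
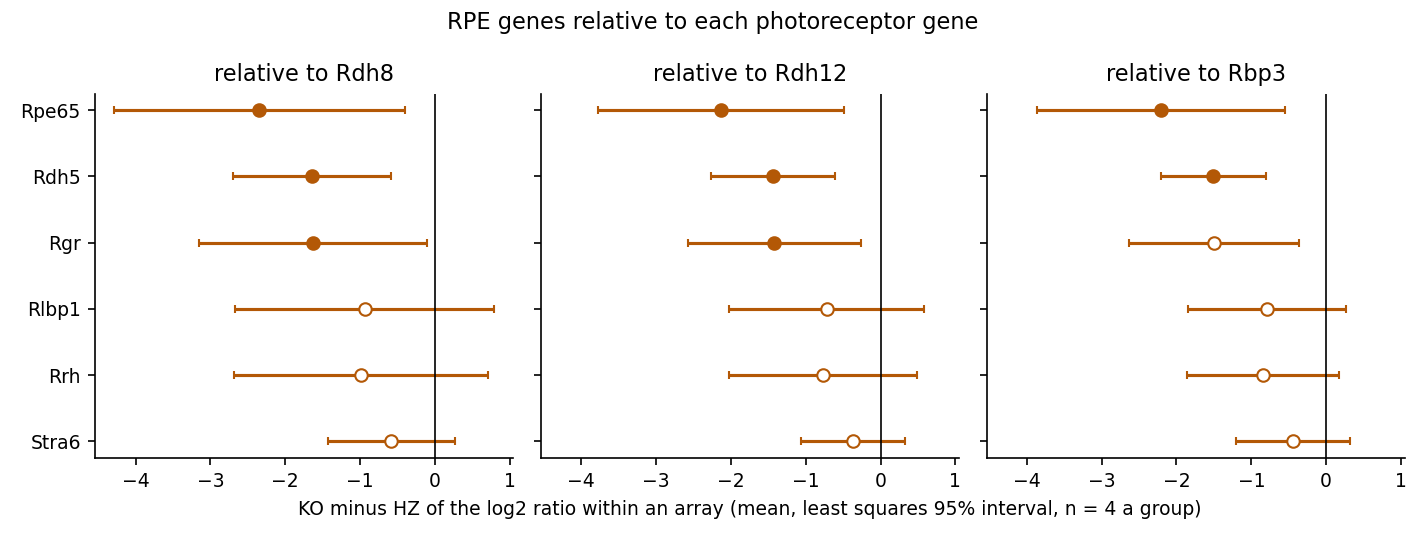
KO minus HZ of the log2 ratio of each RPE gene to Rdh8, Rdh12 or Rbp3 within an array (horizontal axis, mean and least squares 95% interval, n = 4 arrays a group). Filled points mark ratios whose HZ and KO arrays did not overlap, and the intervals of Rpe65, Rdh5 and Rgr leave out 0 in all 3 panels.

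The RPE genes were also set against Rpe65, the gene with the widest difference as reported, a choice made after seeing the data. By that choice every other tested RPE gene had to be higher on average relative to Rpe65, so that the direction is no result. Relative to Rpe65 within an array, Rgr was 0.71 higher in the KO arrays (0.12 to 1.30) and Stra6 1.76 higher (0.29 to 3.23). With the normexp correction and its offset of 50, the difference of Rgr was not the smaller (-1.49 against -1.46 for Rpe65), and Stra6 was at -0.50. The offset narrows the differences of dim probes more. For Rdh5 (0.70, -0.49 to 1.88), Rlbp1 (1.41, -0.46 to 3.28) and Rrh (1.36, -0.24 to 2.96) the interval included 0. With the replicate block the intervals of Rlbp1 (0.16 to 2.65) and Rrh (0.20 to 2.51) left it out. These intervals are unadjusted too.

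The order of the arrays differed between the genes. Rpe65, Rdh5 and the brightest Rgr probe were highest on HZ 1 and lowest on HZ 2 among the HZ arrays, and lowest on KO 4 among the KO arrays. Rlbp1 and the brighter Rrh probe were highest on replicate 2 and lowest on replicate 4 in both groups. The dimmer Rrh probe was highest on HZ 1 and KO 2 and lowest on HZ 3 and KO 4. Between the centred profiles of Rlbp1 and the brighter Rrh probe over the 8 arrays, the root mean square (RMS) distance was 0.18. That was the shortest distance between RPE genes, ahead of Rdh5 and Rgr at 0.35. The profiles of Rdh12 and Rbp3 lay 0.20 apart. From Rpe65, the distance was 0.46 to Rgr, 0.69 to Rdh5, 1.05 to Rrh, 1.15 to Stra6 and 1.17 to Rlbp1, and 1.35 to 1.52 to the 3 photoreceptor genes. The RPE genes did not form 1 block by distance. Stra6 lay closer to the 3 photoreceptor genes (0.39 to 0.51) than to any other tested RPE gene (0.67 to 1.15). Rlbp1 and Rrh lay closer to Rbp3 (0.661 and 0.659) than to Rdh5 (0.788 and 0.691) or Rpe65. These distances describe the same 8 arrays and include the group difference.

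The 8 genes with the profile closest to Rpe65, of 14733 ranked, were Thbs1, Clic6, Col8a1, Mlana, Ttr, Bace2, Krt8 and Fap, at RMS distances of 0.096 to 0.24. Their KO minus HZ differences lay between -2.39 and -2.00. Values near that of Rpe65 follow from the selection, because the profiles include the group difference. Clic6, Mlana, Ttr and Krt8 were on the list of RPE markers, and no visual cycle gene was among the 8.

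The RPE markers outside the visual cycle were lower in the KO arrays as well. Of 19 tested, 19 were lower and 10 fell at the looser thresholds, against 1.13% of all genes, but 9 of the 19 were not measured on every array, and several of these passed the filter on dim probes mainly through their HZ arrays. Of the 10 markers well above background on all 8 arrays, 10 were lower, with a median of -0.99, and 6 were called. These 6 were the pigment genes Dct (-1.45), Pmel (-1.79) and Tyr (-0.85), the lactate transporter gene Slc16a8 (-0.79), Clic6 (-2.14) and the transthyretin gene Ttr (-2.00). Not called were Tyrp1 (-1.14), Mitf (-0.75), Best1 (-0.51) and Krt18, which differed little (-0.12 ± 0.16, SE). Serpinf1, well above background on 3 arrays of each group, differed little too (-0.072 ± 0.51, SE). Mlana, Krt8, Gpr143 and Cdh3, the other called markers, were well above background on 4 HZ arrays and on 1 to 3 KO arrays. The list had a mean level of 0.034 to 1.24 on the HZ arrays and -1.43 to -0.18 on the KO arrays, relative to each gene's mean over the 8 arrays. Its summed signal was 3.87 to 5.32 on the HZ arrays and 2.93 to 3.87 on the KO arrays, in normalized log2 units. HZ 1 was the highest array of the list, HZ 2 the lowest HZ array and KO 4 the lowest of all, as for Rpe65. Among its markers, Cldn19 was well above background on no array. The part of RPE cells or RPE RNA in the differences of the visual cycle genes was not tested.

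The Müller glia markers, which matter for Rlbp1 and Rgr, gave 12 tested of 13, with 9 lower, 0 called and a median of -0.20. Gpr37 differed most, by -0.64 (adjusted p = 0.748). Clu, the marker whose groups did not overlap, differed by -0.56 (adjusted p = 0.441, limma), below the fold of 1.5. The list level was highest on replicate 2 in both groups, as for Rlbp1 and the brighter Rrh probe. The brightest Rgr probe was instead highest on HZ 1 and KO 1. The lists of bipolar cells, connective tissue and retinoic acid synthesis and breakdown were highest on replicate 2 in both groups as well. The ranges of the Müller glia list overlapped (-0.24 to 0.58 for HZ and -0.35 to 0.34 for KO). Hes1 was well above background on no array. Of the 25 rod markers 18 were lower, with a median of -0.10, and of the 11 cone markers 10 were higher, with a median of 0.17, and 0 of both were called. The widest differences were those of Gnb1 among rod markers (-0.73, adjusted p = 0.546) and of Arr3 among cone markers (0.49, adjusted p = 0.77). Nt5e differed by -0.11 (adjusted p = 0.739). The microglia markers had a median of 0.75 with 11 of 12 higher, against 8438 of all 14848 tested genes. Tmem119, the gene called among them, was 0.76 higher, and 49 of the 14848 genes were called higher. It was well above background on 1 HZ and 3 KO arrays, and so passed the filter on dim probes mainly through its KO arrays. Of 9 bipolar cell markers 8 were lower, by a median of -0.38, and 0 were called. Of the markers of amacrine, horizontal and ganglion cells 4 of 13 were tested, of vascular cells 7 of 11 and of connective tissue 2 of 6, and 0 were called. The widest of these were Pou4f1 (-0.80), Cldn5 (1.24) and Pdgfra (0.55). The part of these cells in the visual cycle values was not tested.

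**Figure D4:**
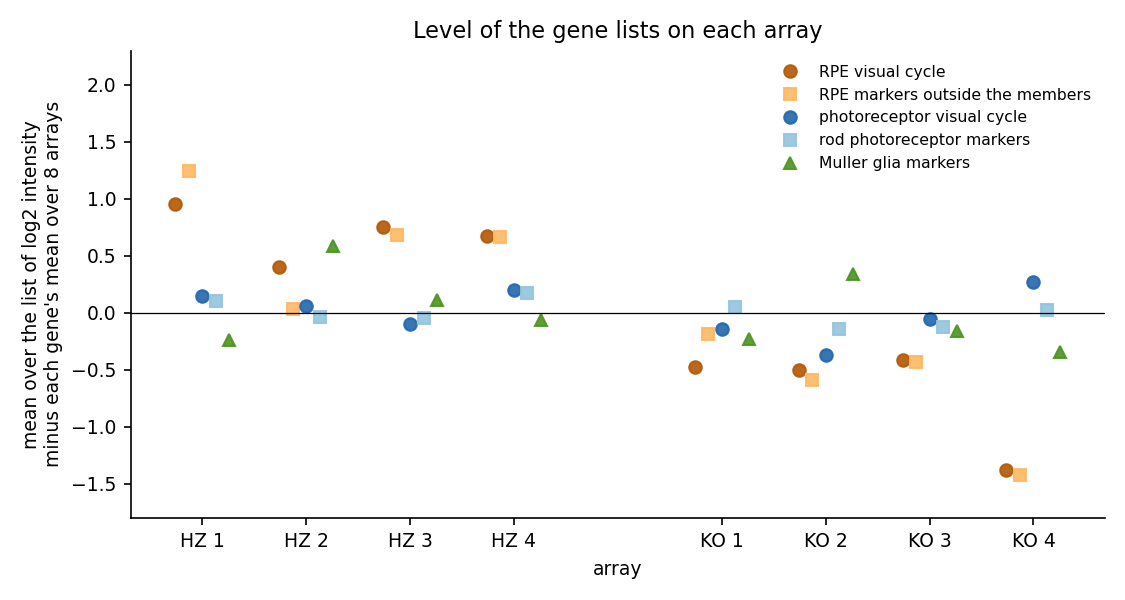
Mean over a gene list of the log2 intensity minus each gene's mean over 8 arrays (vertical axis), for each array (horizontal axis). The RPE visual cycle genes and the other RPE markers are both above 0 on the 4 HZ arrays and below 0 on the 4 KO arrays, lowest on KO 4, while the photoreceptor, rod and Müller glia lists overlap between the groups.

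Among the other genes of retinoid handling, Ttr was the gene called. Of 10 tested dehydrogenases and reductases, 0 were called in either direction, and the median was 0.030. They include Rdh10, a retinol dehydrogenase (0.018 ± 0.10, SE), Rdh11 (0.097 ± 0.12) and Rdh13, whose difference was the widest of the list (0.37, adjusted p = 0.741). Of 6 tested carriers and transporters, Ttr fell (-2.00 ± 0.55, SE, n = 4 a group; adjusted p = 0.441, limma). Abca4, the retinoid flippase gene of outer segments, differed by -0.14 (adjusted p = 0.764). Ttr is on the RPE marker list as well and is counted in both.

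Of 7 tested genes of esterification, carotenoid cleavage and uptake, 0 were called, with Lpl, a lipase gene, the widest at 0.30. For retinoic acid synthesis and breakdown, Aldh1a1 (-0.73 ± 0.58, adjusted p = 0.745) and Cyp26b1 (0.22 ± 0.36, adjusted p = 0.866) were tested, and 4 of 6 genes were not. All 6 retinoic acid receptor genes were higher on average in the KO arrays, by a median of 0.15, and 0 were called. Rxra was the widest of these (0.30, adjusted p = 0.498), under the fold of 1.5. Of the 4 visual pigments and other opsins tested, 2 were lower and 2 higher, the widest being Opn1mw at 0.41 (adjusted p = 0.834).

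**Figure D5:**
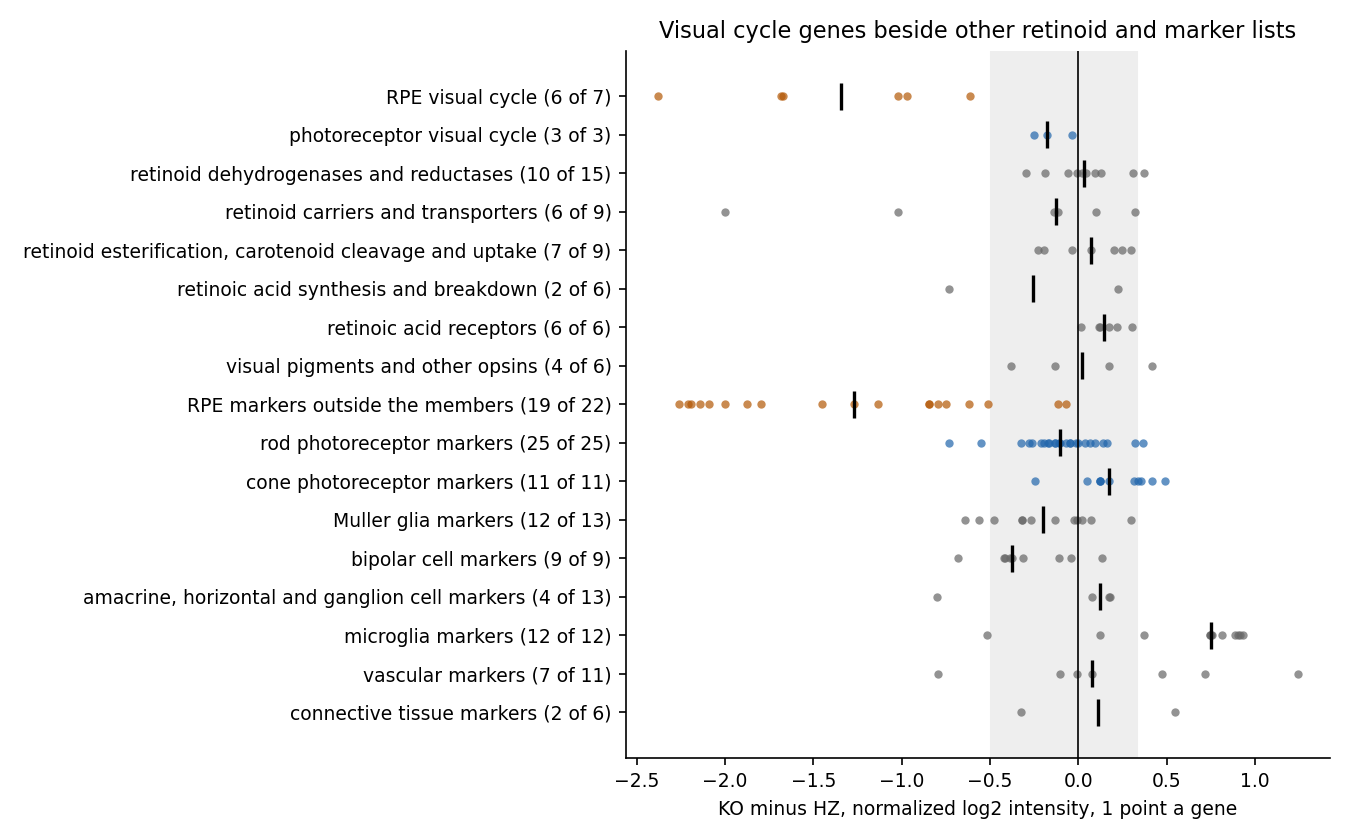
KO minus HZ in normalized log2 intensity (horizontal axis) for each tested gene of each list, with the number tested of the number listed. Black bars are list medians, and the grey band holds the differences from -0.50 to 0.33, the 5th to 95th percentile over all tested genes. The 6 RPE visual cycle genes and most other RPE markers lie below the band, and the 3 photoreceptor genes lie inside it.

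The bases before the start sites are shown for Rpe65, Rgr and Rbp3, which were picked by a motif match and not by their differences. Rdh5, which fell as well, had no match and is not shown. RefSeq promoter windows (GRCm38.p6) were found for all 10 genes, 13 windows in all, and the 250 bases before each start were searched on both strands for TAATCC, a core bound by the photoreceptor and RPE homeodomain factors CRX and OTX2, and for CACGTG and CATGTG, E-boxes of the kind bound by MITF. TAATCC was in the windows of Rpe65, Rgr and Rbp3, and in 6.25% of 32851 windows. CATGTG was in those of Rpe65, Rlbp1 and Rbp3 (12.3% of all windows), and CACGTG in none of the 13 (6.02%). The other genes had no match to any of the 3. TAATCC was thus found before the starts of Rpe65, Rgr and Rbp3, whose differences ranged from -2.38 to -0.18, and not before that of Rdh5. In the lines below, capitals mark the matches on either strand. For Rpe65, the bases outside the annotated gene are given (chr3:159598931-159599074, plus strand), then the site around TAATCC inside it (chr3:159599127-159599156). For Rgr (chr14:37049015-37049264, minus strand) and Rbp3 (chr14:33953753-33954002, plus strand) all 250 bases are given, and each sequence reads 5′ to 3′ along its gene.
Rpe65: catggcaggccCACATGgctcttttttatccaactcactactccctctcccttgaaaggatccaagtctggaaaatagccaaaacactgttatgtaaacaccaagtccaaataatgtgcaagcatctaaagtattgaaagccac
Rpe65 site: ctcctccaataaGGATTAgattgcatacaa
Rgr: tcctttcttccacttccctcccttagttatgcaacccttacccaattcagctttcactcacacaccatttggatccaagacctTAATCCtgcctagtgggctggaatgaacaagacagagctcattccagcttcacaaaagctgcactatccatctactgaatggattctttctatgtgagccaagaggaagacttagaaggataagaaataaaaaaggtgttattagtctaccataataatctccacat
Rbp3: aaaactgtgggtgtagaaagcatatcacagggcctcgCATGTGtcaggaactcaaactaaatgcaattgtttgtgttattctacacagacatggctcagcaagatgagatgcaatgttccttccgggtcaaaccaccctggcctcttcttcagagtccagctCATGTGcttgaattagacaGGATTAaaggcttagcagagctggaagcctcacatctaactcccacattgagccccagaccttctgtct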

How the data were processed

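The 8 arrays were grouped by their genotype labels. The authors hybridized Cy3-labelled RNA, and Agilent Feature Extraction 10.7.1.1 (per the labels) wrote the deposited background-subtracted intensity of each spot. Log2 values that the authors deposited after their own 75 percentile shift were an alternative. These were centred on each probe's median over the arrays (within 0.01 for 100% of 53489 matched probes), had column medians of -0.065 to 0.20, and ran in the same direction as the scanner intensities (slope 1 for differences between arrays), which settled their scale, centring and direction.

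Each log2 intensity was taken relative to the 75th percentile of the non-control spots of its array. Spots marked as outliers were dropped, and the remaining spots of a probe were averaged. Tested probes were well above background on at least 4 arrays, with at least 3 values a group (34303 of 56605 probes). RefSeq accessions were matched to a GRCm38.p6 list of names for 32994 probes. The test was two-sided, with limma 3.58.1 in R 4.3.3, adjusted over all tested probes by Benjamini-Hochberg, at both pairs of thresholds that the methods name. Each gene is represented by its tested probe of highest mean. The genes and lists were chosen with earlier results of these data known, so that lists are given by counts and medians without a test. Named are the visual cycle genes, the 8 genes most like Rpe65 by RMS distance, the called genes of each other list or, with none, its widest difference, others chosen after their values were seen, and Lpcat1. Values of a few such genes are not reported here. The bound for the dim Rpe65 probe sets the HZ mean against, per KO array, the higher of the lowest signal well above background and the probe's own.

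For ratios within an array, limma had been planned. Its moderated p-values are not given, because the deviations of the reference gene enter every probe alike. Ordinary least squares intervals (95%, 6 residual degrees of freedom) were used instead, a choice made after seeing the data, as were the ratio to Rpe65 and the intervals over the 4 pair differences (3 residual degrees of freedom). As a check of pairing, each array's deviations from its group mean were correlated across probes. Arrays of the same replicate number gave r of 0.172 to 0.337, over 0.1 in 4 of 4 pairs, while arrays of other numbers gave -0.337 to 0.117. Arrays of the same number thus deviated together on these arrays. Deviations from a group mean cancel over the group, so that the ranges are not independent, and pairing by design is not settled. The origin of this likeness is not given in the sources used here. The number of arrays limits the precision. The limma fit was tested on simulated data. Alternatives covered the normalization, background correction (normexp with an offset of 50), filter, eBayes options and the methods' t-test. They also covered a replicate block, the authors' values, the mean over a gene's probes and leaving out each array. Plots were drawn with matplotlib 3.10.9.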

Additional observations from a re-analysis of the deposited data

Results flagged for a closer look

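Of 28 groups of 4 values looked at over the visual cycle and Lpcat1 probes, 1 held a value far from its others. Rbp3 read 6.95 on KO 1, while the other KO arrays read 7.20 to 7.25. Chance alone gives such a value in about 1 of 20 groups.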

How the results depend on the processing

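The 6 RPE genes were lower in the KO arrays under every alternative run, with a median of -1.47 to -1.17 and, leaving out each array in turn, -1.49 to -1.05. With no filter on dim probes Lrat enters as well, at 0.064, and the median over 7 genes was -1.02. For the photoreceptor genes the median was -0.22 to -0.14 and, leaving out each array, -0.29 to -0.11. Rdh8 turned to 0.13 with quantile normalization and 0.0032 with the normexp correction, and lay between -0.29 and 0.22 over the arrays left out, above 0 without KO 1 (0.0061) or KO 2 (0.22). The cause was not tested. The count of calls moved far more than the differences. The RPE genes called lower were 3 as reported, and 5 with normexp and with trend and robust eBayes (Rlbp1 and Rrh added). With the filter on all arrays, which keeps probes well above background on every array, they were 4 (Rrh added, adjusted p = 0.459, limma). They were 1 (Rdh5) with no filter on dim probes and 6 with the replicate block. Over the arrays left out they were 0 to 6 (0 without HZ 1, HZ 3, KO 3 or KO 4, 1 without KO 2 and 6 without HZ 2). RPE genes whose ratio to Rbp3 did not overlap were 1 with normexp, and over the arrays left out they were 2 to 4, with 3 to 5 for Rdh8 and 3 for Rdh12. The shares of all genes at these settings are not given here. Among all probes, those called lower at the looser thresholds were 279 as reported, 300 with normexp and 388 with trend and robust eBayes. They were 238 with the filter on all arrays, 178 with quantile normalization, 32 with no filter and 913 with the replicate block. Over the arrays left out they were 0 to 1353. Those called higher were 9 with no filter, 254 with the block and 0 to 361 over the arrays left out. Both counts were 0 without HZ 3, KO 3 or KO 4, and both were highest without HZ 2. At the stricter thresholds 2 probes were called with quantile normalization, 17 with normexp (Rdh5 among the visual cycle genes), 3 with trend and robust eBayes and 2 with the methods' t-test. The block changed no call of the visual cycle genes beyond Rlbp1, Rrh and Stra6. The t-test and the eBayes options were not run for the ratios, which carry no moderated test, and a Rdh8 ratio could not be had with the filter on all arrays, which removes Rdh8. Signal over background limits Lrat, Rdh8 and the dim probes of Rpe65 and Rrh.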
